A study of Mus musculus with 24 samples.

Results

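The AP-1 family examined here comprised Fos, Fosb, Fosl1, Fosl2, Jun, Junb, Jund and Batf3, 8 genes among the 19895 gene entries counted in normal and tumour organoids of the mouse pancreas. The family was chosen on its readout, because Fos had been seen to jump in 2 libraries of replicate 3 of the normal organoids. The values of that replicate, and counts or fits of Fos between N groups or between organoid types that include it, are therefore a description, and p-values of Fos in these comparisons are read only without it. Fosb, Jun, Junb and Jund were high in the same 2 libraries, so their p-values in these comparisons are a description too where that replicate is included. The comparison of CR-31 with vehicle in KP organoids uses that replicate only in the estimate of the error. 7 members had an entry of their own, whereas Fosl1 shared its entry with Ccdc85b, a gene that overlaps it on chromosome 19, so that reads of these genes cannot be told apart. 7 members, the joined entry of Fosl1 included, had a count in each of the 24 libraries and entered the tests over 12209 entries. Batf3 had no count in 2 libraries and is given by its counts.

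AP-1 is a dimeric transcription factor that binds DNA through basic leucine zipper domains, and a Fos protein needs a Jun protein as its partner while Jun proteins can also pair with each other. Fos, Fosb, Jun and Junb are immediate early genes, whose mRNA appears within minutes of growth factor signals, stress or handling of cells and is lost again quickly. Fosl1 and Fosl2 encode the Fos-related proteins Fra-1 and Fra-2, which follow later and last longer, Jund is made at a steadier level, and Batf3 is best known from dendritic cells. In pancreatic duct cells and their tumours AP-1 lies downstream of the MAP kinase pathway.

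Normal (N) organoids were ductal cultures from wildtype C57Bl/6J mice. KP organoids came from tumours of mice of that strain in which Pdx1-Cre, a recombinase driven by a pancreatic promoter, had switched on a single LSL-R172H allele of Trp53, among other changes. Organoids of both types were kept for 1 h in vehicle (DMSO) or in 10 nM CR-31, a rocaglate inhibitor of the RNA helicase eIF4A, and all were given cycloheximide just before harvest. From each of 12 lysates, 3 per organoid type and treatment, 1 library was made of polysome-associated mRNA, bound by several ribosomes, and 1 of total mRNA. No source states whether replicates came from separate animals, so p-values measure the spread between these samples, which may be technical. The library file names carry a prefix that is called a run here, although no label says what it marks. The libraries of N and KP organoids never shared such a run, so a difference between KP and N and a difference between runs cannot be told apart.

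The libraries held 47308500 to 267463000 counted reads, and no pair of libraries within a group was alike within counting noise. The 10 duct markers were all tested, and their summed RPKM (reads scaled to gene length and library size) lay between 4413 and 8170 in N and between 3401 and 5991 in KP libraries. Immune markers summed to between 3.62 and 19.7 RPKM in N and between 1.53 and 25.11 RPKM in KP libraries, the highest value being that of a KP vehicle polysome library. Acinar markers summed to at most 10.7, fibroblast markers to at most 0.146, endocrine markers to at most 0.143 and endothelial markers to at most 0.0745 RPKM.

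Libraries of N replicate 3 went against their labels. A polysome library and the total library of its lysate were compared through the deviation of each gene from the mean of the 6 libraries of that organoid type and fraction, as a description across genes. In 8 of the 12 lysates the polysome library was closest to its own total library, and that of N vehicle replicate 2 was nearly as close to its own (r of 0.65) as to the total library of N CR-31 replicate 2 (0.72). The polysome library labelled N vehicle replicate 3 had an r of 0.26 with the total library of its own lysate and 0.85 with the total library labelled N CR-31 replicate 3. The polysome library labelled N CR-31 replicate 3 had an r of 0.27 with its own total library and 0.79 with the total library labelled N vehicle replicate 3. In KP, the polysome library of CR-31 replicate 1 had an r of 0.053 with its own total library and 0.73 with that of vehicle replicate 1. The labels were kept as they stand, and comparisons of the members that use N organoids are given with all libraries and without N replicate 3.

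Fos, Fosb, Jun and Junb carry short promoter motifs of the kind that CREB/ATF and Jun proteins are known to bind, and these are shown because these 4 genes were the members highest over their usual level in the same 2 libraries. Promoters of 7 of the 8 members were matched in RefSeq (GRCm38.p6). In the 250 bases before the start, the letters TGACG, the first 5 bases of the full element TGACGTCA, were searched on both strands and are in capitals, and for Jun the capitals mark TGACATCA, the element known from its own promoter.
Fos at chr12:85473752-85473774, plus strand: gcgtagagtTGACGacagagcgc
Fos at chr12:85473815-85473837, plus strand: tccgcccagTGACGtaggaagtc
Fosb at chr7:19310092-19310114, minus strand: agttgcgggTGACGcaagcgcgg
Junb at chr8:84978841-84978863, minus strand: tcctgacagTGACGcgagccgcc
Jun at chr4:95052251-95052276, minus strand: gcctcggggTGACATCAtgggctatt

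TGACG was present in 17.8% and TGACATCA in 2.93% of all 32851 promoters of the same length, so these matches are descriptions of the sequence and not evidence of a site. The promoters of Fosl2, Jund and Batf3 held neither. None of the 7 windows held TGACGTCA, the AP-1 element TGANTCA or a CArG box, which 1.55%, 6.75% and 1.47% of all promoters held. The start that the promoter table gives for Fosb lies inside the full span of the gene printed here, so its site is upstream of that start but within the span. Elements further upstream lie outside the windows.

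Fos (chr12:85473890-85477274), the archetypal immediate early gene, was between 28.97 and 112 CPM (read counts relative to the TMM-scaled library size) in 10 of the 12 N libraries and many times higher in the other 2. In polysome-associated mRNA of vehicle-treated N organoids Fos stood at 44.6, 28.97 and 1529 CPM in replicates 1, 2 and 3. In total mRNA of the same lysates it stood at 49.2, 33.2 and 55.2 CPM. After CR-31 the pattern was turned around, with 95.4, 35.5 and 44.1 CPM on polysomes and 112, 43.02 and 2164 CPM in total mRNA. The high values thus sat in the polysome library of one lysate and in the total library of the other, while the partner library of each lysate lay within the range of the remaining N libraries.

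Fosb (chr7:19302696-19310118), a second Fos protein of the immediate early class, was high in the same libraries. Its polysome-associated mRNA was 0.66, 6.05 and 49.9 CPM in vehicle-treated and 1.13, 4.08 and 1.34 CPM in CR-31-treated N organoids. Its total mRNA was 0.92, 6.32 and 1.59 CPM with vehicle and 1.15, 5.53 and 70.9 CPM with CR-31. Replicate 2 was the highest of the remaining N replicates in all 4 groups.

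Jun (chr4:95049036-95052222), the main partner of Fos, stood at 56.2, 107 and 1078 CPM on polysomes of vehicle-treated and at 127, 163 and 88.6 CPM on polysomes of CR-31-treated N organoids. Its total mRNA was 55.1, 109 and 90.2 CPM with vehicle and 124, 175 and 1144 CPM with CR-31. Junb (chr8:84976909-84978748), a Jun protein with weaker activating power, was 281, 105 and 1763 CPM on polysomes with vehicle and 523, 156 and 1312 CPM in total mRNA with CR-31. For both genes the highest N values were again those of the 2 libraries, and the remaining libraries of Junb reached 587 CPM in replicate 1 after CR-31.

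**Figure D1:**
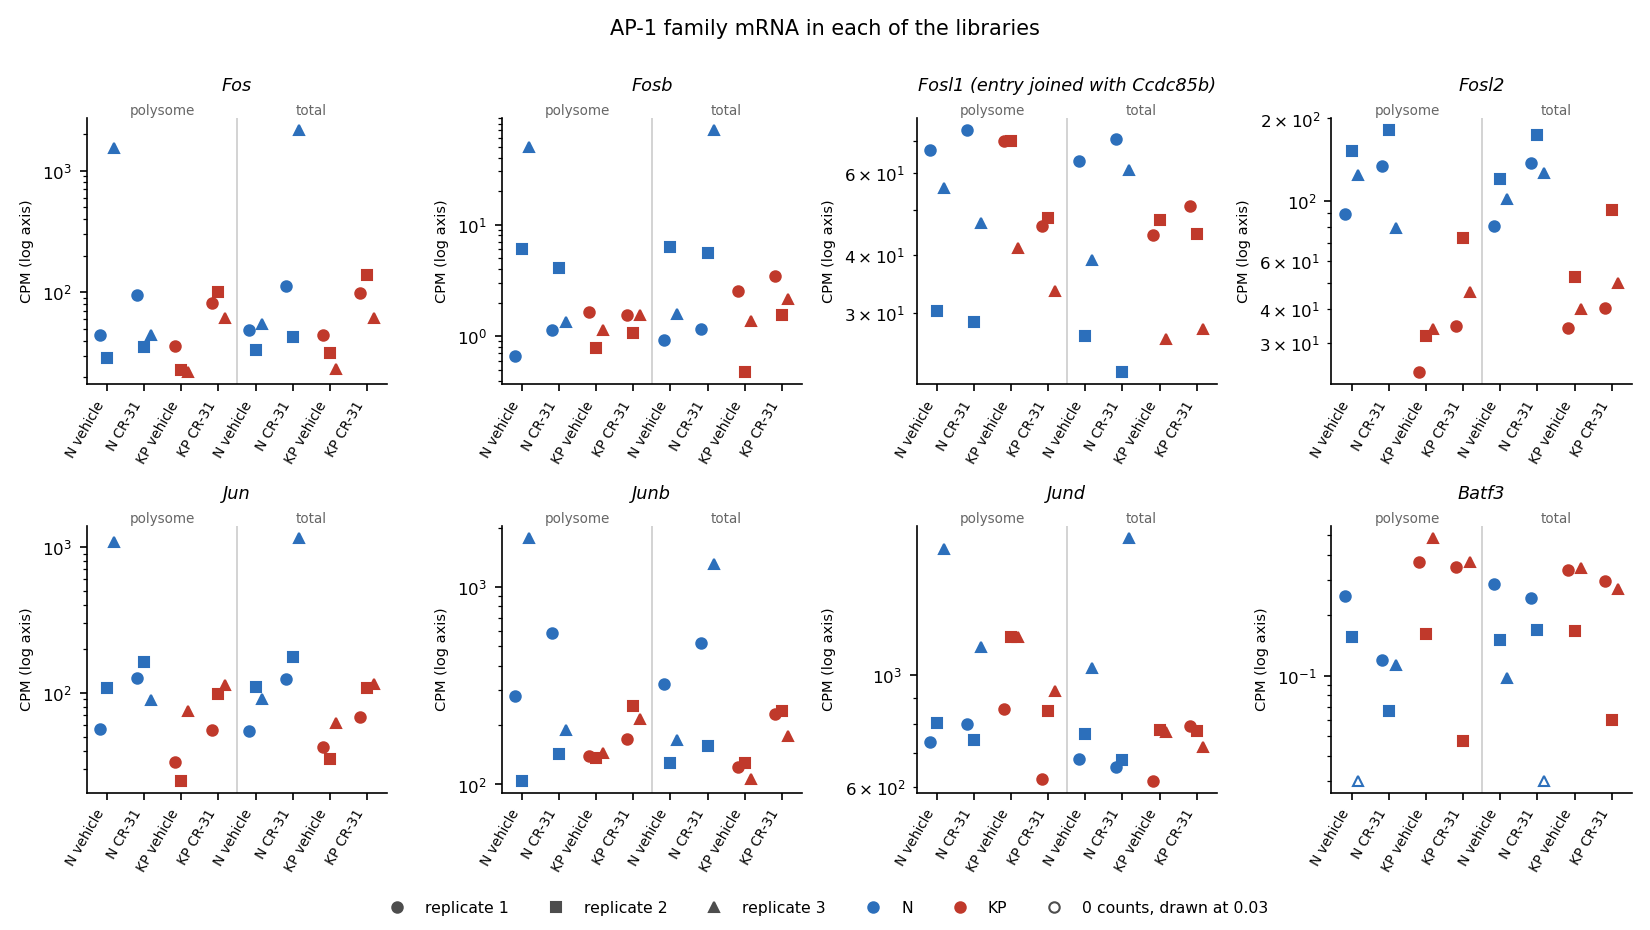
CPM of each member (log axis) in each library, by organoid type, treatment and fraction, with a symbol for each replicate number and an open symbol for 0 counts. In 5 panels (Fos, Fosb, Jun, Junb and Jund) the triangles of N vehicle polysome and N CR-31 total stand above all other N libraries, and in the Batf3 panel the same 2 libraries have no count.

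Against the median of the other 10 N libraries, the library labelled N vehicle polysome replicate 3 held 34.5 times as much Fos, 34.1 times as much Fosb, 9.96 times as much Jun and 9.88 times as much Junb mRNA. The library labelled N CR-31 total replicate 3 held 48.8, 48.5, 10.6 and 7.36 times as much of them in this order. Jund was 2.36 and 2.48 times the median in these libraries, at 1778 and 1868 CPM against a highest value of 1137 CPM elsewhere in N. Fosl1 was 1.29 and 1.42 times and Fosl2 0.98 and 0.99 times the median, both within the range of the other 10 libraries. Batf3 was at 0 counts in precisely these 2 libraries and between 5 and 42 counts in the other N libraries. 5 of the 7 tested members were thus above the other 10 N libraries in both, as were 1470 of all 12209 entries, or 12%. The Fos value chose these libraries, so these counts are a description.

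Other immediate early genes were high in the same libraries. Of 16 immediate early genes outside the family, 12 were above the other 10 N libraries in both, and the examples named here were chosen after their values were seen. Dusp1, the phosphatase that switches off MAP kinases, was at 2162 and 2160 CPM against at most 100.4 CPM elsewhere in N. Egr1, an early zinc finger factor, was at 2261 and 4045 CPM against at most 200.2 CPM. Zfp36, which speeds decay of AU-rich mRNAs, was at 1235 and 1417 CPM, and Atf3, a stress-induced partner of Jun proteins, at 1019 and 1012 CPM against at most 67.4 CPM elsewhere. Myc, Klf2, Klf4 and Ctgf were not above the other N libraries in both. These libraries held 93639600 and 82695500 counted reads, within the range of the other N libraries, and Cd68, the 1 tested immune marker, was also above the other 10 N libraries in both. How the high values arose was not tested.

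**Figure D2:**
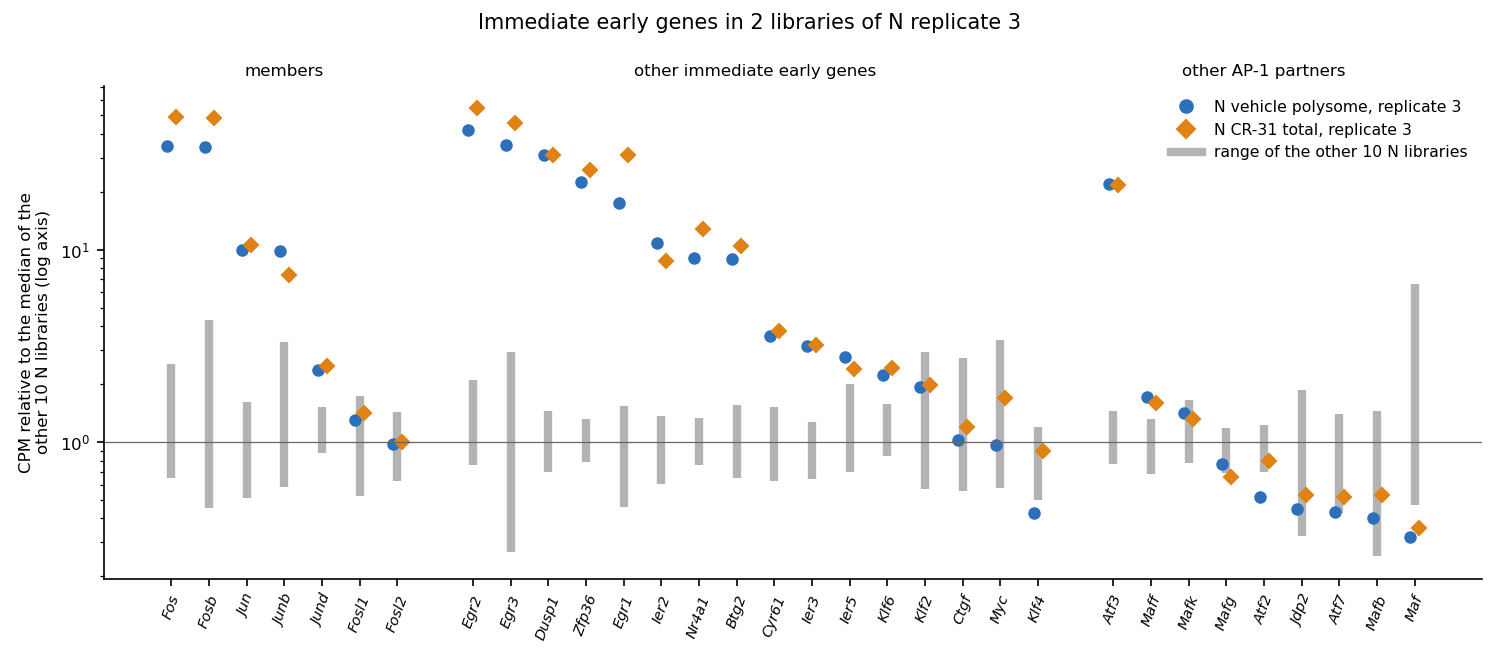
CPM of the tested members, of 16 other immediate early genes and of other AP-1 partners in the libraries labelled N vehicle polysome replicate 3 and N CR-31 total replicate 3, divided by the median of the other 10 N libraries (log axis), with grey bars for the range of those 10 libraries. Fos and Fosb stand at 34.1 to 48.8 times the median, Jund at 2.36 and 2.48 times, and Fosl1 and Fosl2 lie inside their grey bars.

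Per length, Jund had the highest level of the members in 20 of the 24 libraries, Junb in 3 and Fos in 1, and Fosb and Batf3 had the lowest levels in all 24. In total mRNA of vehicle-treated KP organoids the level of Jund was 246 ± 26.2 RPKM (mean ± SD, n = 3), followed by Junb with 63.9 ± 6.44, Fos with 15.6 ± 5.29, Jun with 14.4 ± 4.17, the joined entry of Fosl1 with 8.53 ± 2.58 and Fosl2 with 7.08 ± 1.47 RPKM. Batf3 was at 0.39 ± 0.14 and Fosb at 0.38 ± 0.28 RPKM. Jund and Junb stood apart from their neighbours in this order by more than their spread, whereas the values of Fos and Jun, of Fosl1 and Fosl2, and of Batf3 and Fosb overlapped.

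The comparison of KP with N organoids asked how the transcriptome and the translated mRNA differ between tumour and normal cells. Fosl2 was the only member that passed as lower in KP organoids in all 4 comparisons. Most other calls were lost without N replicate 3, though Fosb and Jun kept theirs on polysomes with vehicle. With all libraries, 5 of the 7 tested members were lower in KP than in N on polysomes with vehicle (Fos, Fosb, Fosl2, Jun and Junb) and none was higher. Over all entries 43.8% passed the threshold (edgeR, adjusted p under 0.25) and 24.1% passed it with lower values in KP. In total mRNA with vehicle 1 of 7 passed, Fosl2, beside 28.6% of all entries, of which 15.3% of those tested were lower in KP. With CR-31, 1 of 7 passed on polysomes (Fosl2, against 24.6% of all entries and 13.5% lower in KP) and 5 of 7 in total mRNA, all lower (Fos, Fosb, Fosl2, Jun and Junb, against 39.5% and 21.9%). DESeq2 gave Fos no p-value on polysomes with vehicle and passed the other 4 there, beside 44% of all entries. The 2 comparisons with 5 calls were those that held one of the 2 high libraries, so their calls of Fos, Fosb, Jun and Junb are a description. In total mRNA with CR-31, 1 member was also left without KP replicate 1, where the share of all entries fell to 15.1%.

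Without N replicate 3, which left 2 N replicates per group, 4 of 7 members passed on polysomes with vehicle, 3 of them lower in KP (Fosb, Fosl2 and Jun) and Jund higher, beside 52.5% of all entries and 26.4% lower in KP. In total mRNA with vehicle 2 passed, Fosl2 and Jun, both lower, against 19.1% and 10.5%. With CR-31, Fosl2 alone passed on polysomes, against 34.5% and 17.4%, and in total mRNA, against 26.2% and 13.6%. The share of members called was below that of all entries in both comparisons with CR-31, and above it in both comparisons with vehicle, where Fosb and Jun passed close to the threshold. The median log2 fold change over the 7 members on polysomes with vehicle went from -2.36 with all libraries to -0.43 without N replicate 3, beside -0.07 and -0.02 over all entries.

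Fosl2 (chr5:32136472-32157840), which encodes Fra-2, was 89.7, 152 and 124 CPM on polysomes of vehicle-treated N organoids and 23.5, 31.8 and 33.9 CPM on those of KP organoids. In total mRNA it was 80.9, 120 and 101 CPM in N and 33.99, 52.5 and 40.1 CPM in KP. All 3 KP libraries lay below all 3 N libraries in both fractions, as for 10.1% of all entries. The log2 fold change of KP over N was -2.04 (SE 0.35, adjusted p = 0.00572, edgeR) on polysomes and -1.25 (SE 0.30, adjusted p = 0.0271) in total mRNA. Leaving out N replicate 3 gave -1.99 (SE 0.34, adjusted p = 0.00559) and -1.26 (SE 0.35, adjusted p = 0.0857).

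After CR-31, Fosl2 stood at 134, 182 and 79.4 CPM on polysomes of N and at 34.8, 72.9 and 46.05 CPM on those of KP organoids, with a log2 fold change of -1.36 (SE 0.35, adjusted p = 0.0410, edgeR). In total mRNA it was 137, 173 and 126 CPM in N and 40.4, 92.7 and 49.9 CPM in KP, with -1.25 (SE 0.30, adjusted p = 0.0264). The groups did not overlap in either fraction, as for 9.7% of all entries. Leaving out N replicate 3 gave -1.61 (SE 0.34, adjusted p = 0.0278) and -1.35 (SE 0.35, adjusted p = 0.0686). Fosl2 passed the threshold in all 4 comparisons under each alternative setting that compared KP with N. The replicate block and the run term were fitted only for effects of CR-31 and did not cover these comparisons.

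Jun was 33.7, 24.99 and 74.6 CPM on polysomes and 42.5, 35.1 and 61.6 CPM in total mRNA of vehicle-treated KP organoids, where replicate 3 was the highest. Its log2 fold change of KP over N without N replicate 3 was -0.84 on polysomes (SE 0.48, adjusted p = 0.226, edgeR) and -0.83 in total mRNA (SE 0.36, adjusted p = 0.246), both just inside the threshold. With N replicate 3, as a description, it was -3.22 (SE 0.91, adjusted p = 0.0358) and -0.87 (SE 0.66, adjusted p = 0.463). The vehicle groups of Jun overlapped in both fractions, since KP replicate 3 lay above N replicate 1.

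Fosb was 1.65, 0.78 and 1.13 CPM on polysomes of vehicle-treated KP organoids, and without N replicate 3 its log2 fold change was -1.46 (SE 0.82, adjusted p = 0.219, edgeR). That value rested on N replicate 2 at 6.05 CPM, since N replicate 1 at 0.66 CPM lay below all 3 KP libraries. Junb was 140, 136 and 144 CPM in the same KP libraries, with -0.43 (SE 0.54, adjusted p = 0.584) without N replicate 3. Fos itself was 36.02, 22.7 and 22.04 CPM on polysomes and 44.1, 31.9 and 23.13 CPM in total mRNA of vehicle-treated KP organoids. The log2 fold change of Fos without N replicate 3 was -0.42 (SE 0.41, adjusted p = 0.483) on polysomes and -0.32 (SE 0.45, adjusted p = 0.751) in total mRNA, neither past the threshold.

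Jund (chr8:70697739-70700616), which is often described as opposing growth signals, was 857, 1192 and 1192 CPM on polysomes of vehicle-treated KP and 737, 802 and 1778 CPM on those of N organoids. Its log2 fold change was -0.03 (SE 0.33, adjusted p = 0.959, edgeR) with all libraries and 0.52 (SE 0.22, adjusted p = 0.112) without N replicate 3, so that its call depended on that replicate. In total mRNA without N replicate 3 it was -0.01 (SE 0.17, adjusted p = 0.982). The joined entry of Fosl1 (chr19:5447698-5455938) and Ccdc85b did not pass in any of the 4 comparisons, with log2 fold changes of -0.33 to 0.25 with all libraries. It varied widely among N replicates, at 67.1, 30.4 and 55.6 CPM on polysomes with vehicle.

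**Figure D3:**
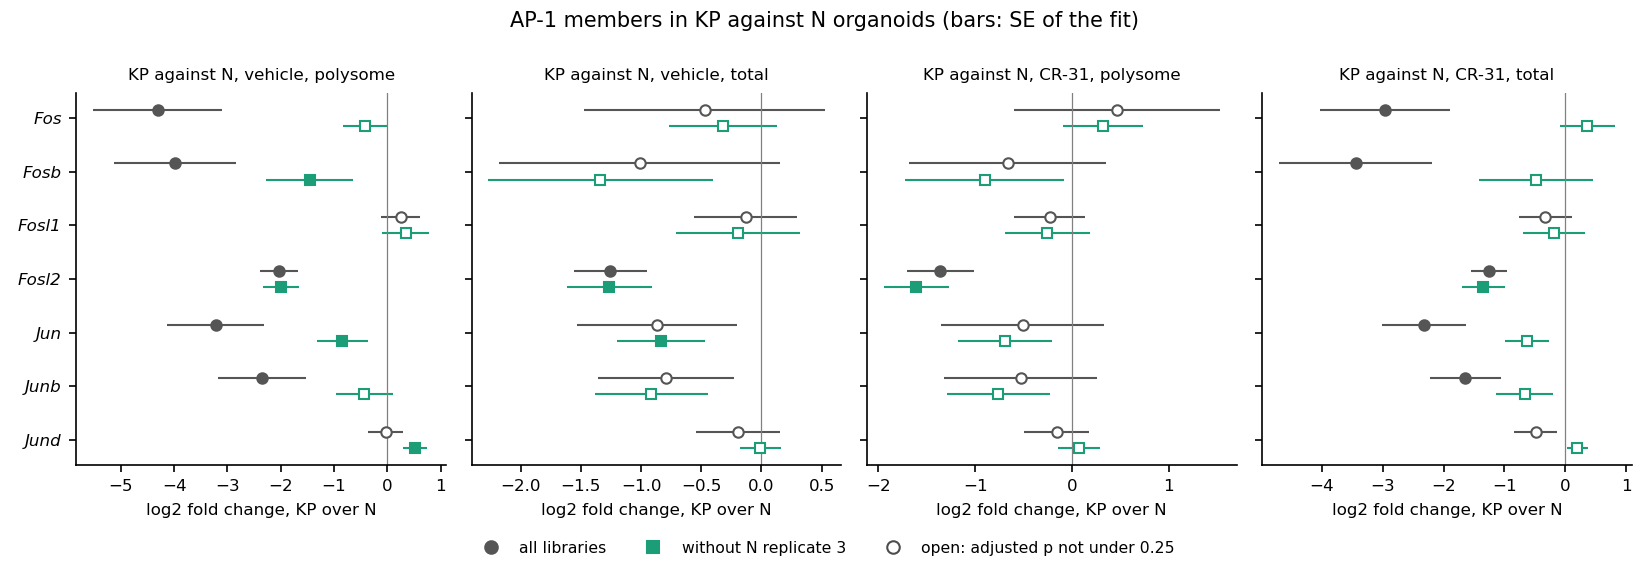
Log2 fold change of KP over N with its SE for the 7 tested members, by treatment and fraction, with all libraries (circles) and without N replicate 3 (squares); filled symbols have an adjusted p under 0.25, and the horizontal axes differ between panels. Fosl2 keeps its place in all 4 panels, from -2.04 to -1.25 with all libraries, while Fos on polysomes with vehicle goes from -4.31 to -0.42.

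Batf3 (chr1:191098414-191108943) was near the limit of detection, with 5 to 71 counts in the 22 libraries in which it was counted and levels of 0.047 to 0.48 CPM there. In KP organoids with vehicle it was 0.37, 0.16 and 0.48 CPM on polysomes and 0.34, 0.17 and 0.34 CPM in total mRNA. In N organoids with vehicle it was 0.25 and 0.16 CPM on polysomes of replicates 1 and 2, and 0.29, 0.15 and 0.097 CPM in total mRNA. Without a filter on counts and without N replicate 3, its log2 fold change of KP over N with vehicle was 0.73 (SE 0.94, adjusted p = 0.654, edgeR) on polysomes and 0.37 (SE 0.84, adjusted p = 0.915) in total mRNA. The 5 dendritic cell markers summed to 0.81 to 1.53 RPKM in N and 0.20 to 0.51 RPKM in KP libraries, and 1 of them was at 0 counts throughout. Of the markers of other cell types, the 1 tested fibroblast marker, Col1a1, had a log2 fold change of -2.77 and the 1 tested immune marker, Cd68, of -1.23 (adjusted p = 0.18, edgeR) on polysomes with vehicle. When N replicate 3 was left out, Col1a1 was at -2.29 and Cd68 at -0.13 (adjusted p = 0.835), so the value of Cd68 rested on that replicate. Zbtb46, the only dendritic marker that was tested, was lower in KP on polysomes with vehicle (log2 fold change -1.73, adjusted p = 0.0549), and at -1.59 (adjusted p = 0.0967) without N replicate 3. The part of these markers in the AP-1 values was not tested.

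The partners and regulators of AP-1 were compared in the same way, with vehicle on polysomes. Of 9 tested genes that encode other AP-1 partners, 3 passed with all libraries, all lower in KP, and 3 passed without N replicate 3 (1 higher, 2 lower), beside 43.8% and 52.5% of all entries. Atf3 went from -2.99 (adjusted p = 0.0634, edgeR) with all libraries to 0.39 (adjusted p = 0.177) without N replicate 3, so its direction was that of 1 replicate. Atf7, a relative of Atf2 that dimerises with Jun proteins, was lower in KP either way, at -1.21 (adjusted p = 0.0734) and -1.52 (adjusted p = 0.00562). Of 19 tested upstream kinases and factors, 3 were higher and 3 lower with all libraries, beside the same 43.8% of all entries. Elk3, an ETS factor that acts at serum response elements, was lower (-1.39, adjusted p = 0.0325), and Map2k2, the kinase MEK2 directly above ERK, was higher (1.03, adjusted p = 0.0261), and both kept their sign without N replicate 3 (-1.71 and 0.97). Leaving out N replicate 3 gave 4 higher and 7 lower, beside 52.5% of all entries.

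Of 13 tested genes known as AP-1 targets, 2 were higher in KP and 7 lower on polysomes with vehicle, and 2 higher and 5 lower without N replicate 3, beside the same 43.8% and 52.5% of all entries. Spp1, the secreted protein osteopontin, was lower in KP (log2 fold change -2.58, SE 0.49, adjusted p = 0.00793, edgeR), as was Cd44, the hyaluronan receptor (-2.09, SE 0.29, adjusted p = 0.00262). Spp1 was at -1.93 and Cd44 at -2.19 when N replicate 3 was left out. The median over the list was -1.23 with all libraries and -0.51 without N replicate 3, beside -0.07 and -0.02 over all entries. Of 16 other immediate early genes, 13 were lower in KP with all libraries and 5 without N replicate 3, and none was higher. Egr2 and Egr3, zinc finger factors of the Egr1 kind, went from -5.75 to -1.50 and from -4.39 to -1.33, of which the last value did not pass. Of the 10 duct markers, 2 were higher (Pdx1 at 0.95 and Krt7 at 0.46) and 5 lower in KP with all libraries, with Sox9 at -1.54 and Cdh1 at -1.13. Without N replicate 3, 1 was higher (Pdx1 at 1.19) and 5 lower, with Sox9 at -1.50 and Cdh1 at -1.03. These counts stand beside 43.8% and 52.5% of all entries, and the part of the duct genes in the AP-1 values was not tested.

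The effect of CR-31 addressed which mRNAs respond when eIF4A is inhibited. No member passed the threshold in KP or N organoids with all libraries, nor did any other entry (0% on polysomes and in total mRNA of both types). At an unadjusted p under 0.05, edgeR gave 1 member in KP on polysomes (Fosl2), 0 in KP total mRNA, 2 in N on polysomes and 4 in N total mRNA, against 3.46%, 0.803%, 0.418% and 2.85% of all entries. DESeq2 passed 2 members in N total mRNA (Fos and Jun, beside 0.123% of all entries) and 0 in the other 3 comparisons, with no p-value for Fos on polysomes. The counts in N rest on the replicate that the family was chosen on and are a description. No member passed without N replicate 3 either, with 2 members at an unadjusted p under 0.05 in each fraction of KP (10.3% of all entries on polysomes and 1.08% in total mRNA) and 0 in N (1.71% and 0.639%). At the adjusted threshold, 0.0164% of all entries passed in KP on polysomes and 0% in the other 3 comparisons.

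In KP organoids, Fos, Jun, Junb and Fosl2 had higher values with CR-31 than with vehicle in 3 of 3 same-numbered pairs in both fractions, as did 6.65% of all entries. Fos on polysomes was 81.3, 99.7 and 60.8 CPM with CR-31 against 36.02, 22.7 and 22.04 CPM with vehicle. In total mRNA it was 98.7, 139 and 61.5 CPM against 44.1, 31.9 and 23.13 CPM. The groups did not overlap in either fraction, which held for Fos and Junb among the members and for 1.28% of all entries. The log2 fold change of Fos was 1.58 (SE 1.08, adjusted p = 1.00, edgeR) on polysomes and 1.59 (SE 1.02, adjusted p = 1.00) in total mRNA, an error that was estimated together with the spread of the N libraries. The values without N replicate 3 were 1.58 (SE 0.38, unadjusted p = 0.00229, adjusted p = 0.342) and 1.60 (SE 0.41, unadjusted p = 0.00343, adjusted p = 1.00), which still did not pass.

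Junb on polysomes of KP organoids was 170, 250 and 216 CPM with CR-31 against 140, 136 and 144 CPM with vehicle, and in total mRNA 229, 235 and 175 CPM against 123, 129 and 106 CPM. These groups did not overlap either. Jun was 55.3, 98.4 and 113 CPM on polysomes with CR-31 against 33.7, 24.99 and 74.6 CPM, and 68.1, 107 and 114 CPM in total mRNA against 42.5, 35.1 and 61.6 CPM, so the groups of Jun overlapped on polysomes but not in total mRNA. The log2 fold changes without N replicate 3 were 0.60 (SE 0.48) for Junb and 0.99 (SE 0.44) for Jun on polysomes, with adjusted p-values of 0.753 and 0.483 (edgeR). Fosl2 had 0.78 (SE 0.31, adjusted p = 0.413).

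Fosl1 and Jund had lower values on polysomes of KP organoids with CR-31 in 3 of 3 pairs, as did 28.2% of all entries. Jund was 623, 849 and 930 CPM with CR-31 against 857, 1192 and 1192 CPM with vehicle, and in total mRNA 792, 774 and 718 CPM against 617, 776 and 770 CPM. The Fosl1 entry was 46.2, 47.9 and 33.5 CPM against 70.3, 70.02 and 41.4 CPM on polysomes, and 50.8, 44.3 and 27.7 CPM against 44.2, 47.5 and 26.4 CPM in total mRNA. On polysomes the CR-31 values of both members reached into the range of vehicle, and in total mRNA they were not lower throughout.

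Vehicle and CR-31 lysates of the same number were paired, and with the number as a block 3 members passed in KP on polysomes (adjusted p under 0.25, edgeR), beside 20.8% of all entries. Fosl2 rose by 0.73 on the log2 scale (SE 0.24, adjusted p = 0.197), the Fosl1 entry fell by 0.49 (SE 0.14, adjusted p = 0.197) and Jund fell by 0.44 (SE 0.17, adjusted p = 0.215). With the block and without N replicate 3, a setting added after the data were seen, 6 members passed in KP on polysomes, beside 55.3% of all entries. Fos rose by 1.58 (SE 0.16, adjusted p = 0.000135), Jun by 1.08 (SE 0.20, adjusted p = 0.00165), Fosl2 by 0.73 (SE 0.13) and Junb by 0.58 (SE 0.14), and the Fosl1 entry fell by 0.49 (SE 0.10) and Jund by 0.44 (SE 0.11). In N on polysomes 4 members then passed, Fos, Fosl2, Jun and Junb, all higher with CR-31, beside 14.7% of all entries, and in total mRNA 0 passed in either type (0%). KP CR-31 replicate 1, whose libraries did not match each other, was also left out, again after the data were seen. That left KP vehicle replicate 1 without a partner, so only the pairs of replicates 2 and 3 carried the KP effect. The 6 members passed again in KP on polysomes, beside 38% of all entries, with Fos at 1.79 (SE 0.17). In KP total mRNA 5 then passed, Fos, Fosb, Fosl2, Jun and Junb, all higher with CR-31, beside 20% of all entries, with Fos at 1.77 (SE 0.21, adjusted p = 0.0206), so the calls in total mRNA depended on that lysate. No member passed with the block in KP total mRNA (0%), in N on polysomes (0%) or in N total mRNA (0.0246%).

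Within KP organoids the difference of Fos was also taken within each run, where 1 run held 1 vehicle and 2 CR-31 lysates and the other 2 and 1. The log2 differences of Fos were 1.82 and 1.51 on polysomes and 2.00 and 1.4 in total mRNA, and those of Jun 0.50 and 0.93 on polysomes and 0.84 and 0.82 in total mRNA. Fosl2 had 0.77 and 0.35 on polysomes, but 0.76 and -0.06 in total mRNA. Without KP CR-31 replicate 1, whose libraries did not match each other, Fos was at 1.57 (SE 1.21) on polysomes and 1.60 (SE 1.18) in total mRNA, and Jun at 1.25 in both, none past the threshold (adjusted p = 1.00, edgeR).

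**Figure D4:**
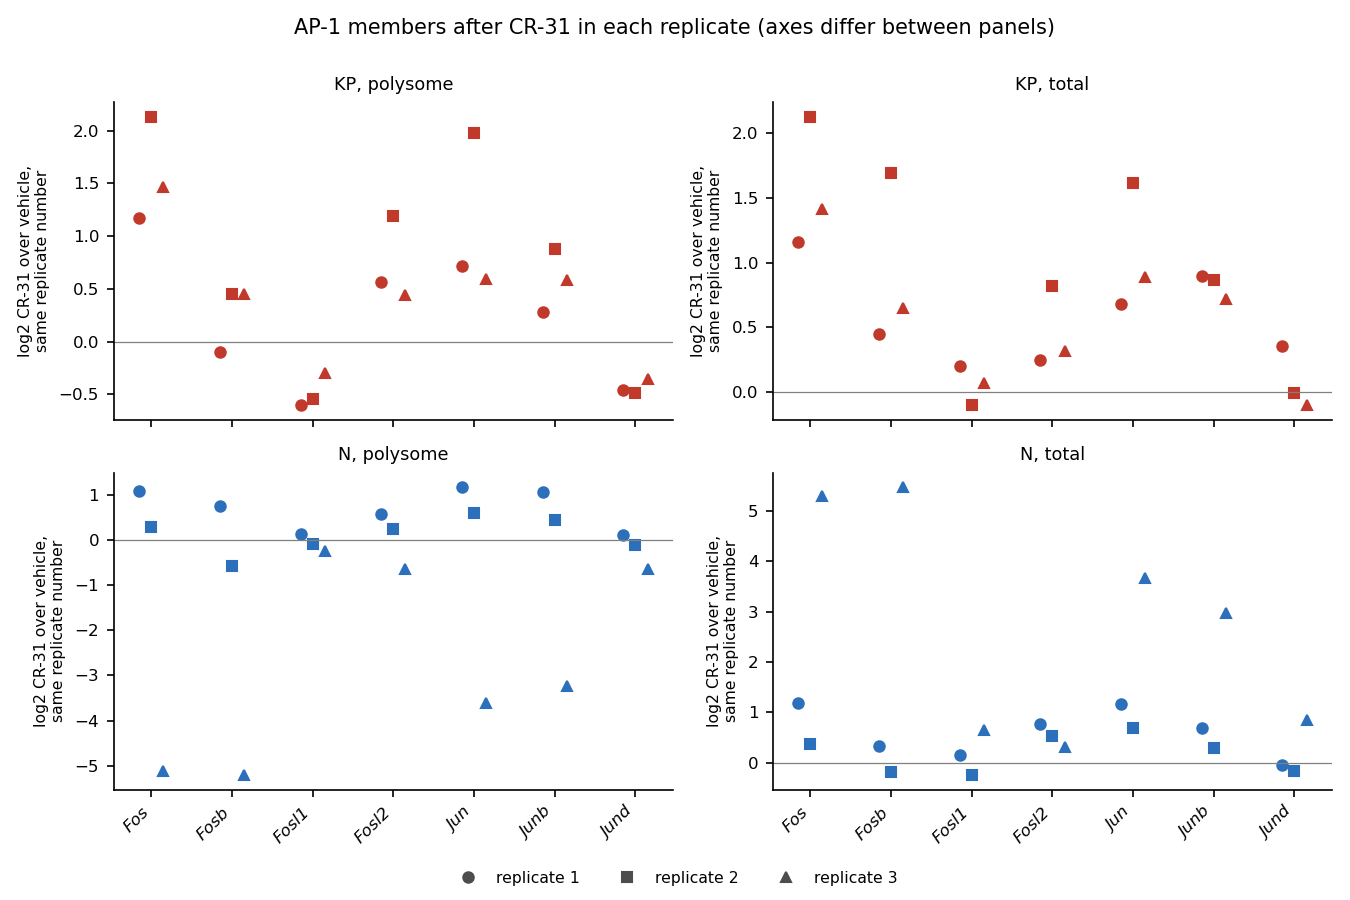
Log2 ratio of CR-31 to vehicle CPM for the 7 tested members in each same-numbered pair, by organoid type and fraction, with a symbol for each replicate number and vertical axes that differ between panels. In KP, Fos lies between 1.16 and 2.13 in all 6 pairs, while in N the triangles of replicate 3 stand at -5.12 on polysomes and 5.29 in total mRNA and the other pairs lie between 0.30 and 1.19.

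In N organoids without replicate 3, Fos was higher with CR-31 than with vehicle in both remaining pairs, with log2 ratios of 1.09 and 0.30 on polysomes and 1.19 and 0.37 in total mRNA. The fitted log2 fold changes were 0.84 (SE 0.45, adjusted p = 1.00, edgeR) and 0.91 (SE 0.50, adjusted p = 1.00). Jun had ratios of 1.18 and 0.61 on polysomes, and Junb 1.06 and 0.44. The CR-31 effect of KP minus that of N was tested as an interaction, and no member passed on polysomes or in total mRNA (0% of all entries in each, edgeR). At an unadjusted p under 0.05 it gave 3 members on polysomes and 0 in total mRNA with all libraries (2.17% and 0.131% of all entries), and 0 in both without N replicate 3 (1.59% and 0.164%). The count of 3 members rests on N replicate 3 and is a description. DESeq2 passed 0 members as well, with no p-value for Fos on polysomes. For Fos the interaction was 0.74 (SE 0.58, adjusted p = 1.00) on polysomes without N replicate 3. With the replicate block as well, 3 members passed on polysomes, beside 26.9% of all entries, Fos with a larger CR-31 effect in KP (0.87, SE 0.25, adjusted p = 0.0951) and the Fosl1 entry (-0.54) and Jund (-0.45) with a lower one, and 0 in total mRNA (0%). When KP CR-31 replicate 1 was also left out, Fos alone passed on polysomes (1.09, SE 0.24, adjusted p = 0.0590), beside 5.44% of all entries.

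Translational efficiency, the change of polysome-associated relative to total mRNA, was tested by an interaction term in a model of both fractions that took the lysate into account. With all libraries no member passed for KP against N, or for CR-31 in N or in KP (0% of all entries in each, edgeR), and each comparison had 1 member at an unadjusted p under 0.05, beside 11.6%, 2.92% and 5.5% of all entries. DESeq2 passed 1 member, Fosl2, for KP against N (2.98% of all entries) and 0 for CR-31. With the replicate block and without N replicate 3, 4 members passed for CR-31 in KP, beside 47.3% of all entries, the Fosl1 entry (-0.55), Fosb (-0.65) and Jund (-0.53) lower and Fosl2 (0.26) higher. KP CR-31 replicate 1, whose libraries did not match each other, had the lowest polysome over total ratio of the 3 CR-31 lysates for Fosl1 (-0.14), Fosb (-1.16) and Jund (-0.35). When it was also left out, 2 members passed, beside 13.7% of all entries, the Fosl1 entry (-0.42, SE 0.11, adjusted p = 0.0873, edgeR) and Jund (-0.38, SE 0.14, adjusted p = 0.174). Without N replicate 3, 4 members passed for KP against N with vehicle, 3 of them higher in KP, beside 35.9% of all entries. These were the Fosl1 entry (0.53, SE 0.17, adjusted p = 0.0943), Junb (0.52, SE 0.22, adjusted p = 0.158) and Jund (0.52, SE 0.20, adjusted p = 0.130), whereas Fosl2 was lower (-0.71, SE 0.18, adjusted p = 0.0822). For Fosl2 this term was -0.76 (SE 0.22, adjusted p = 0.424) with all libraries and did not pass.

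Within vehicle-treated KP organoids, 3 of 7 members passed for polysome against total mRNA with all libraries, beside 28.3% of all entries. Fosl1 (0.63, SE 0.15, adjusted p = 0.0567, edgeR) and Jund (0.57, SE 0.20, adjusted p = 0.122) were higher on polysomes and Fosl2 (-0.50, SE 0.15, adjusted p = 0.0912) was lower. The log2 ratios of the 3 lysates were 0.67, 0.56 and 0.65 for Fosl1, 0.47, 0.62 and 0.63 for Jund and -0.53, -0.72 and -0.24 for Fosl2, so each member had 1 sign in all lysates. These calls depended on the KP replicates, as did those of all entries. Without KP vehicle replicate 1 or 2, 0 members passed, beside 0.541% and 0.852% of all entries, and the same held without all libraries of KP replicate 2 or 3 (0.221% and 0.524%). The fold changes in these 4 settings were 0.60 to 0.66 for Fosl1, 0.55 to 0.63 for Jund and -0.62 to -0.39 for Fosl2. Without KP vehicle replicate 3, Fosl1 and Fosl2 passed, beside 7.96% of all entries. Without N replicate 3, 5 members passed, beside 48.1% of all entries, now with Junb higher (0.24) and Fos lower (-0.28) on polysomes. In CR-31-treated KP organoids 0 members passed with all libraries (20.4% of all entries), with 0 at an unadjusted p under 0.05 (20.2%). Leaving out N replicate 3 gave 3 members there, all lower on polysomes (Fos, Fosb and Fosl2, beside 39.6% of all entries). In N organoids 0 members passed with vehicle (15.3% of all entries) or with CR-31 (19.3%), again with 0 members at an unadjusted p under 0.05 (17.6% and 19.6%), and DESeq2 passed 0 in these 3 groups. Leaving out N replicate 3 also gave 0 members in N with vehicle (36.4% of all entries) and with CR-31 (19.4%), with 0 at an unadjusted p under 0.05 (28.8% and 19.7%), and the log2 ratios then lay between -0.29 (Fosb) and 0.21 (Fosl2) with vehicle and between -0.28 (Fos) and 0.19 (Fosl1) with CR-31.

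**Figure D5:**
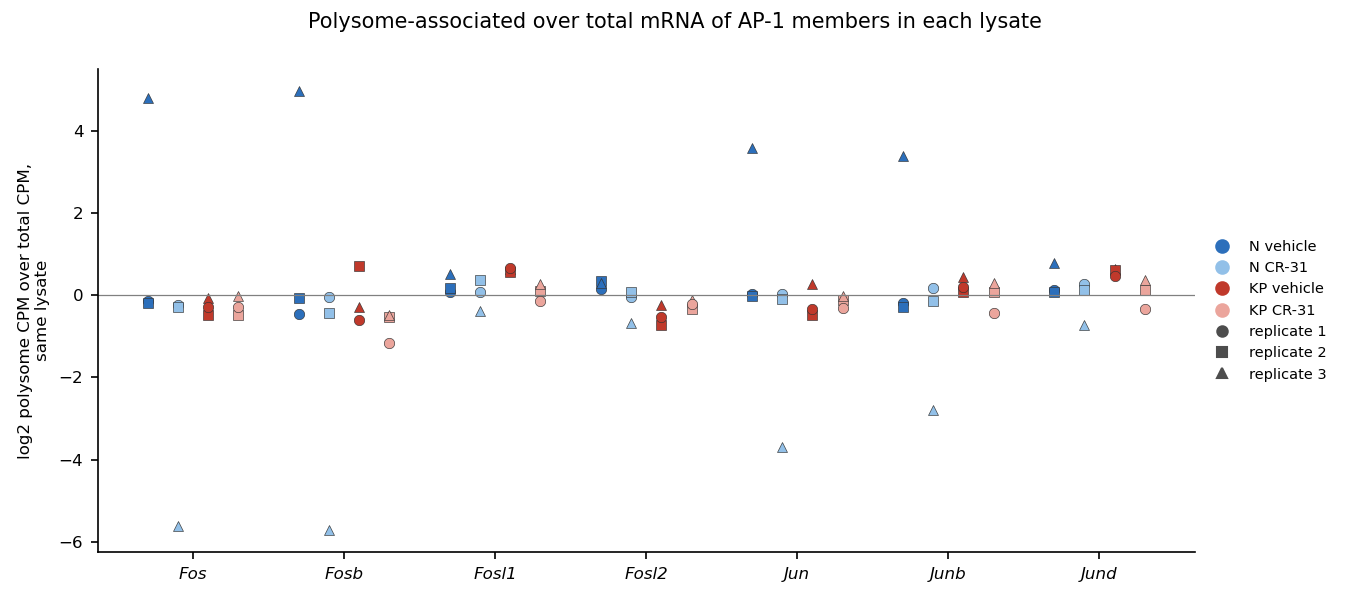
Log2 ratio of polysome to total CPM of the 7 tested members in each of the 12 lysates, by organoid type and treatment, with a symbol for each replicate number. The ratios of N replicate 3 stand at 4.79 with vehicle and -5.62 with CR-31 for Fos, while the other 10 lysates lie between -0.49 and -0.02.

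The genes whose level was most like that of Fos over the 24 libraries (Pearson's r of log2 CPM, a description over libraries that share runs and organoid types) were Smyd3 with 0.95, Dusp1 with 0.94, Csrnp1 with 0.93, Egr2 with 0.93 and Hbegf with 0.92. When N replicate 3 was left out the 5 genes were others, Ppp1r10 with 0.90, Zfp623 with 0.89, Prpf8 with 0.86, Frmd4b with 0.85 and Zfp235 with 0.85 over 20 libraries. For Fosl2 the closest gene was Lamb3 (0.96), a laminin chain of the basement membrane, and Il6st (0.97), the shared receptor chain of the interleukin-6 family, without that replicate. The closest gene over 24 libraries was Egr3 for Fosb (0.94), Vgf for the Fosl1 entry (0.89), Txnip for Jun (0.97), Per1 for Junb (0.93) and Trex1 for Jund (0.95). When that replicate was left out it was Blnk for Fosb (0.93), Vgf again for Fosl1 (0.94), Zscan2 for Jun (0.95), Zfp746 for Junb (0.92) and Ppp1r16a for Jund (0.93). Among members, the r of Fos went from 0.75 to -0.09 with Fosb, from 0.84 to 0.38 with Jun and from 0.91 to 0.73 with Junb when N replicate 3 was left out.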

How the data were processed

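The authors deposited read counts per RefSeq gene, and RPKM values, for polysome-associated and total mRNA of 24 libraries. The processing notes name HISAT2, SAMtools and the human build hg38, whereas the counted genes are mouse genes. Reads with several alignments were discarded, per the methods. Part of the KP genotype is not reported here. The deposited RPKM values served only for levels between genes and for marker sums. Counts with at least 1 read in every library (12209 of 19895 entries) were scaled by TMM and tested with edgeR 4.0.16 (R 4.3.3, quasi-likelihood F test) in 1 fit per fraction over all groups, or over both fractions with the lysate as a block, and p-values were adjusted by Benjamini-Hochberg over all entries. An adjusted p under 0.25 was called, the cutoff of the study, but without the limits on fold change and regression slope that the study also set. Of 1042 entries that join several symbols 752 were tested. The members and the gene lists were chosen with earlier results of these data known. Besides the members, the 2 genes of each list with the largest fold change among those called on polysomes with vehicle, the duct markers called higher there, and the genes most like each member, are named.

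Same-numbered vehicle and CR-31 libraries of an organoid type deviated together (r of 0.54 to 0.91 in N and 0.36 to 0.87 in KP), so the numbers pair them, whereas N and KP did not pair (-0.18 to 0.30). Alternatives were DESeq2 1.42.0, other scalings and filters, the replicate block and a run term for effects of CR-31, and leaving out replicates. The fit was tested on simulated data. Counts of 47308500 to 267463000 reads per library leave little counting error except in Batf3 and Fosb.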

Additional observations from a re-analysis of the deposited data

How the results depend on the processing

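Fosl2 was lower in KP than in N under all settings that compared them, with adjusted p-values of at most 0.218. The replicate block and the run term did not include that comparison. In the paired analysis, the replicate block raised the members called for CR-31 in KP polysomes from 0 to 3 (20.8% of all entries), and with N replicate 3 left out as well to 6 (55.3%); this last setting gave 4 in N polysomes (14.7%), 3 for the difference between the types on polysomes (26.9%) and 4 for translational efficiency with CR-31 in KP (47.3%), and the block alone changed no other count of members. When KP CR-31 replicate 1 was left out on top, these counts were 6, 4, 1 and 2 (38%, 8.5%, 5.44% and 13.7% of all entries), and CR-31 called 5 members in KP and 4 in N total mRNA (20% and 27%). Both removals under the block were added after the data were seen, and the last left only the pairs of replicates 2 and 3 in KP. Leaving out replicates also moved the share of all entries called, given here in parentheses. It gave 1 to 2 members for KP against N in vehicle total mRNA (14.1% to 37.4%), 1 to 7 in CR-31 total mRNA (15.1% to 46.3%), 0 to 4 for translational efficiency of KP against N (0% to 35.9%), and for polysome against total mRNA 0 to 1 in N vehicle (0.352% to 36.4%), 0 to 2 in N CR-31 (3.33% to 30.4%), 0 to 5 in KP vehicle (0.221% to 48.1%) and 0 to 3 in KP CR-31 (2.37% to 39.6%). An adjusted p under 0.05 left 1 member for KP against N in CR-31 total mRNA (10.1%) and 0 for polysome against total mRNA in KP vehicle (1.16%). DESeq2 called 4 members for KP against N on vehicle polysomes, where Fos had no p-value (44%), 2 for CR-31 in N total mRNA (0.123%) and 1 for translational efficiency of KP against N (2.98%). No filter with N replicate 3 left out gave 1 for KP against N in CR-31 total mRNA (17.6%), 4 for that efficiency (19.1%) and 3 for polysome against total mRNA in KP CR-31 (23.4%).

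Among members called under at least 1 setting, and for CR-31 in KP, signs turned as follows. For KP against N on vehicle polysomes, Jund (-0.03) became 0.0154 without a filter, 0.00125 in DESeq2 and 0.49 with no filter and N replicate 3 left out, and ranged from -0.26 to 0.52 over left-out replicates. In CR-31 total mRNA, Fos became 0.40 and Jund 0.23 with no filter and N replicate 3 left out, and the ranges were -3.51 to 0.40 for Fos, -0.69 to 0.0476 for Fosl1 and -0.73 to 0.23 for Jund. For CR-31 in N polysomes, Fos became 0.84, Jun 0.85 and Junb 0.93 in that setting and 0.71, 0.90 and 0.76 with the block, with or without KP CR-31 replicate 1, with ranges of -4.30 to 0.84, -2.39 to 0.84 and -2.50 to 0.92, and Fosl2 ranged from -0.20 to 0.39. For CR-31 in KP, Fosb ranged from -0.00682 to 0.53 on polysomes, and Fosl1 from -0.16 to 0.30 and Jund from -0.0502 to 0.19 in total mRNA, where they were -0.0118 and -0.0465 with the block and N replicate 3 and KP CR-31 replicate 1 left out. Jund ranged from -0.60 to 0.11 for the difference of the CR-31 effects on polysomes. For translational efficiency, Junb of KP against N became 0.48 with no filter and N replicate 3 left out and ranged from -1.36 to 0.52, and Fosb with CR-31 in KP became 0.12 by regression on total mRNA. Without N replicate 3 the median over the members also turned for polysome against total mRNA in N vehicle (0.83 to -0.03), for the difference of the CR-31 effects in total mRNA (-0.85 to 0.21) and for translational efficiency with CR-31 in N (-1.69 to 0.01). The causes were not tested.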
